A study of Homo sapiens with 17 samples.

Results

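The genes described here are 35 established transcriptional targets of the tumour suppressor p53, taken by symbol from a list. The list was chosen with earlier results of these data known, so the counts below are descriptions and no test was made over it. All 35 symbols were found among the 23230 genes of the count tables, and 34 had enough reads to be tested. The receptor gene EDA2R was left out as too low, with 0 to 5 reads in each of the 12 libraries. LNCaP is an androgen-dependent human prostate cancer cell line. Its subline LNCaP-abl (abl in what follows) grows without androgen. Each line was treated for 3 days with 40 nM of an siRNA against CREB1 (siCREB1), an siRNA against FOXA1 (siFOXA1) or a control siRNA (siControl, labelled SIC in the tables). The 6 groups, with 2 RNA-seq libraries each, were abl siCREB1, abl siFOXA1, abl siControl, LNCaP siCREB1, LNCaP siFOXA1 and LNCaP siControl. The abl cells were at passages 62 to 64 and had been kept in 10% charcoal-stripped serum, which is poor in steroid hormone, whereas LNCaP cells were at passages 32 to 34 and had been kept in 10% serum. During treatment all groups stood in medium with 5% charcoal-stripped serum, and all received an siRNA. Only 1 line of each kind was used, so a difference between the lines concerns these 2 lines, which also differ in passage and in culture serum.

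The protein p53 is a transcription factor that is held at a low level by its target MDM2, a ubiquitin ligase, and by the related MDM4, and that accumulates when DNA damage or other stress frees it from them. Its targets stop the cell cycle (CDKN1A, which encodes p21), open death pathways (FAS and the TRAIL receptors), repair DNA (XPC, DDB2), limit growth and oxidative stress (SESN1) and feed back on p53 itself. CREB1 binds cAMP response elements in promoters, and FOXA1, a forkhead protein, opens closed chromatin so that further factors can bind, the androgen receptor of prostate cells among them. Several of these targets also answer to other regulators, so their level is not a measure of p53 activity alone.

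The promoters below are shown because they hold, close to the start of a p53 target gene, a match to the motif of one of the factors named above. RefSeq windows (GRCh38.p14) of 250 bases before to 50 after a start were held for 28 of the 35 genes, in 43 windows, and the 150 bases before the start are printed for 6 genes at their most upstream start. Capitals mark the match. It is the cAMP response element TGACGTCA in EPHA2 and PPM1D, the FOXA motif TGTTTAC in GDF15, and the p53 half-site consensus in PLK2, AEN and FDXR.
EPHA2 promoter, chr1:16156070-16156219, minus strand: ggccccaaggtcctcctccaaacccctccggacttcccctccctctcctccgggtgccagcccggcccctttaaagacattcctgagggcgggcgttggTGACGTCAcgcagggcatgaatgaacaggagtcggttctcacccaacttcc
PPM1D promoter, chr17:60600043-60600192, plus strand: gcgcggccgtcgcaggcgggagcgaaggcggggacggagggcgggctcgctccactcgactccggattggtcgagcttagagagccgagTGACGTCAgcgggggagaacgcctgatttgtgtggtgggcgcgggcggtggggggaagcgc
GDF15 promoter, chr19:18386008-18386157, plus strand: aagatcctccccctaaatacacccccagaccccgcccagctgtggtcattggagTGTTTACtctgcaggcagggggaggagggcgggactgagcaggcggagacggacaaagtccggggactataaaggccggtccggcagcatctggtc
PLK2 promoter, chr5:58460087-58460236, minus strand: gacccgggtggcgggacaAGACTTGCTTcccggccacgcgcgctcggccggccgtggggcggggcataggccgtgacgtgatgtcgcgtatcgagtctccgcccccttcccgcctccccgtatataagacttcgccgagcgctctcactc
AEN promoter, chr15:88621190-88621339, plus strand: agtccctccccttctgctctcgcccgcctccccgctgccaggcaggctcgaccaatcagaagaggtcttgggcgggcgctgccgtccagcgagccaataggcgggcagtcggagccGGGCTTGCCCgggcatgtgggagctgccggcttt
FDXR promoter, chr17:74872995-74873144, minus strand: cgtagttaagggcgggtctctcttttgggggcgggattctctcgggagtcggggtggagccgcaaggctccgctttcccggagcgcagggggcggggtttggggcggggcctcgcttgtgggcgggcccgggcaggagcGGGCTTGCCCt
The match began 51 bases before the start in EPHA2, 61 in PPM1D, 96 in GDF15, 132 in PLK2, 34 in AEN and 11 in FDXR. Both strands were searched. A cAMP response element stood in windows of 2 of the 28 genes (EPHA2 and PPM1D), 4.65% of the 43 windows, against 1.85% of all 35116 windows, and its core TGACG, which the full element contains, in 12 of the 28 genes and 12 of their 43 windows (27.9%), near the 24.6% of all windows. The FOXA motif stood in 2 of the 28 (GDF15 and PERP), 4.65% of the 43 windows, against 3.42% of all windows. The p53 half-site stood in 6 of the 28 (AEN, DDB2, FAS, FDXR, PLK2 and SESN1), 14% of the 43 windows, against 6.63% of all windows. A match describes the letters only. No window was held for TNFRSF10A, TNFRSF10B, TNFRSF10C, PHLDA3, TP53INP1, RRM2B and GADD45A.

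Library depth was 9092597 to 37314039 reads in genes, and the 35 genes together held 0.254% to 0.368% of them. Levels are CPM, counts per library scaled to a common depth with TMM scaling, and tests are edgeR's quasi-likelihood F-test on 15550 genes in 1 fit of all 12 libraries. A gene was called at a Benjamini-Hochberg adjusted p below 0.05, and a log2 fold change carries its standard error (SE). The siRNAs' own targets stood as follows. CREB1 had 46.3 and 43.9 CPM in abl siCREB1 against 78.8 and 79.7 CPM in abl siControl, and 38.7 and 29.8 CPM in LNCaP siCREB1 against 81.0 and 85.3 CPM in LNCaP siControl. FOXA1 had 195.6 and 229.1 CPM in abl siFOXA1 against 556.4 and 504.1 CPM in abl siControl, and 215.1 and 210.8 CPM in LNCaP siFOXA1 against 798.8 and 695.4 CPM in LNCaP siControl. Each target was lower in both libraries of its knockdown. CREB1 was also called lower with siFOXA1, by a log2 fold change of -0.44 ± 0.09 in either line (edgeR, adjusted p = 0.00114 in abl and 0.00126 in LNCaP). All 6 luminal prostate markers were present, at a summed 2096.8 to 3914.0 CPM, and the 4 basal markers summed to 0 to 1.19 CPM. The 6 fibroblast markers summed to 10.8 to 21.2 CPM in abl and 60.0 to 103.6 CPM in LNCaP, mostly COL1A1, with COL1A2 at 0 reads in all libraries. The first siControl library of each line held reads of neutrophil genes (87 in abl and 76 in LNCaP of CSF3R, 20 in each of S100A8) that had 0 to 2 reads in every other library, and counts are given with and without these 2 libraries. S100A9, a neutrophil gene as well, did not follow them, with 88 and 62 reads there, but also 96 and 64 in abl siFOXA1, 59 and 89 in LNCaP siFOXA1 and 1 to 7 in the other 6 libraries. For 2 further blood genes the picture was mixed. PTPRC had 86 and 75 reads in abl siCREB1 against 64 and 8 in abl siControl. In LNCaP it had 9 reads in the first siControl library and 0 or 1 in the others. LYZ had 28 to 144 reads in every library, with the most in the first siControl libraries (144 in abl and 106 in LNCaP). These are raw reads, and those 2 libraries were also the deepest. All 8 blood and endothelium markers together summed to 3.42 to 11.5 CPM. The labels do not say that the libraries of a group came from separate cultures, so p-values measure the spread between these libraries, which may be technical. In bulk RNA, fewer cells of a type and less RNA per cell cannot be told apart.

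With siFOXA1 more of these genes rose than fell, in both lines. In LNCaP, 23 of the 34 tested p53 targets rose with siFOXA1 (67.6%), against 24.4% of all tested genes, and 6 fell (17.6%), against 25.5% of all. In abl, 16 rose with siFOXA1 (47.1%), against 29.9% of all, and 5 fell (14.7%), against 26.5% of all. With siCREB1 the numbers that rose and fell were close to each other in both lines. In abl, 11 rose with siCREB1 (32.4%), against 27.5% of all, and 13 fell (38.2%), against 23.7% of all. In LNCaP, 6 rose with siCREB1 (17.6%), against 17.8% of all, and 8 fell (23.5%), against 19.8% of all, shares near those of all genes. The median log2 fold change of the 34 was 0.48 with siFOXA1 in LNCaP, where that of all genes was -0.01, and 0.27 with siFOXA1 in abl, where that of all genes was 0.03. With siCREB1 the medians were -0.03 in abl and -0.02 in LNCaP, against 0.03 and -0.00 for all genes. Without the first siControl libraries, 21 rose and 4 fell with siFOXA1 in LNCaP, 16 rose and 6 fell with siFOXA1 in abl, 5 rose and 7 fell with siCREB1 in LNCaP, and 10 rose and 9 fell with siCREB1 in abl. The 13 falls with siCREB1 in abl became 8 without the second abl siCREB1 library and 8 without the first abl siControl library. For refits, here and below, the shares over all genes were not computed, so a change in such a count may not be particular to these genes. The 2 knockdowns of a line share their siControl libraries, so that their values are set side by side below and not correlated.

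**Figure D1:**
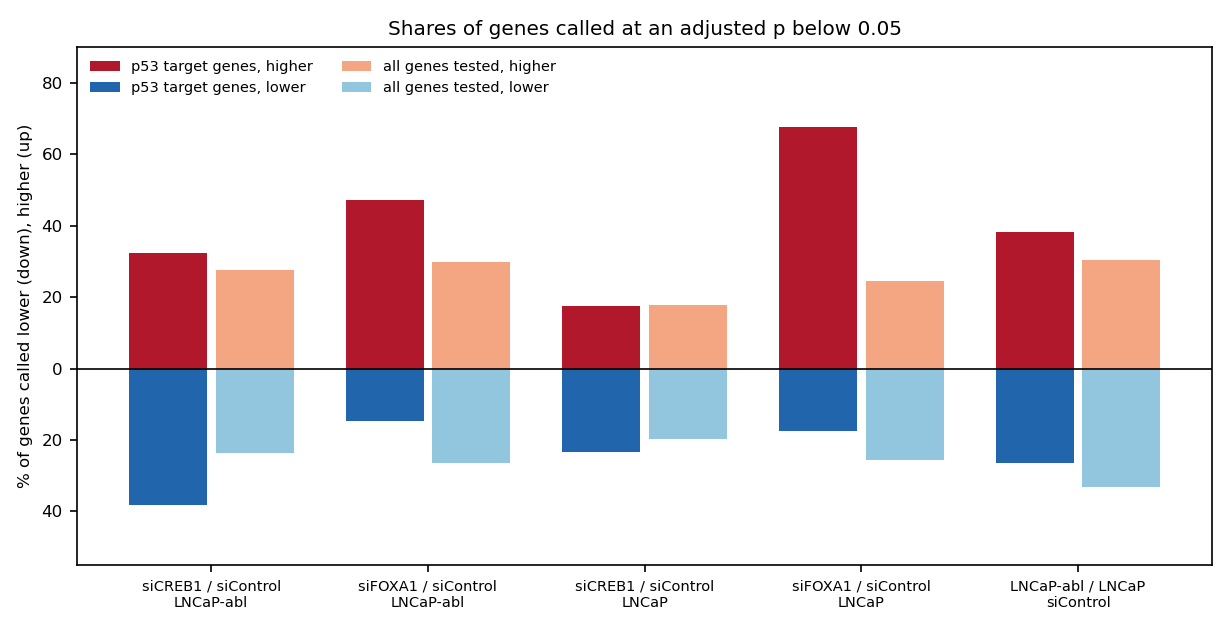
Share of genes called higher (up) and lower (down), in percent, for the 34 tested p53 target genes (dark bars) and all 15550 tested genes (light bars) in each comparison. The dark bar for genes higher with siFOXA1 in LNCaP reaches 67.6%, against 24.4% for all genes, whereas with siCREB1 in LNCaP the dark and light bars are nearly equal in height (17.6% and 17.8%).

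Across the 4 knockdown comparisons, 9 of the 34 genes were called in all 4, 7 in 3, 14 in 2, 3 in 1 and 1, PLK3, in none. These shares were 26.5%, 20.6%, 41.2%, 8.82% and 2.94%, against 15%, 21.1%, 26.7%, 18.5% and 18.7% of all tested genes. FAS, PHLDA3 and TRIAP1 were higher in all 4, and MDM4 and TP53INP1 were lower in all 4, shares of 8.82% and 5.88% beside 5.9% and 6.08% of all genes. A further 13 genes were called in both directions, according to the knockdown or the line (38.2%, against 14.1% of all genes). In the control state, abl against LNCaP, 13 of the 34 were higher (38.2%), against 30.5% of all genes, and 9 were lower (26.5%), against 33.1% of all. Their median log2 difference between the lines was 0.06, against -0.02 for all genes. Without the first siControl libraries, 9 were higher and 7 lower.

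**Figure D2:**
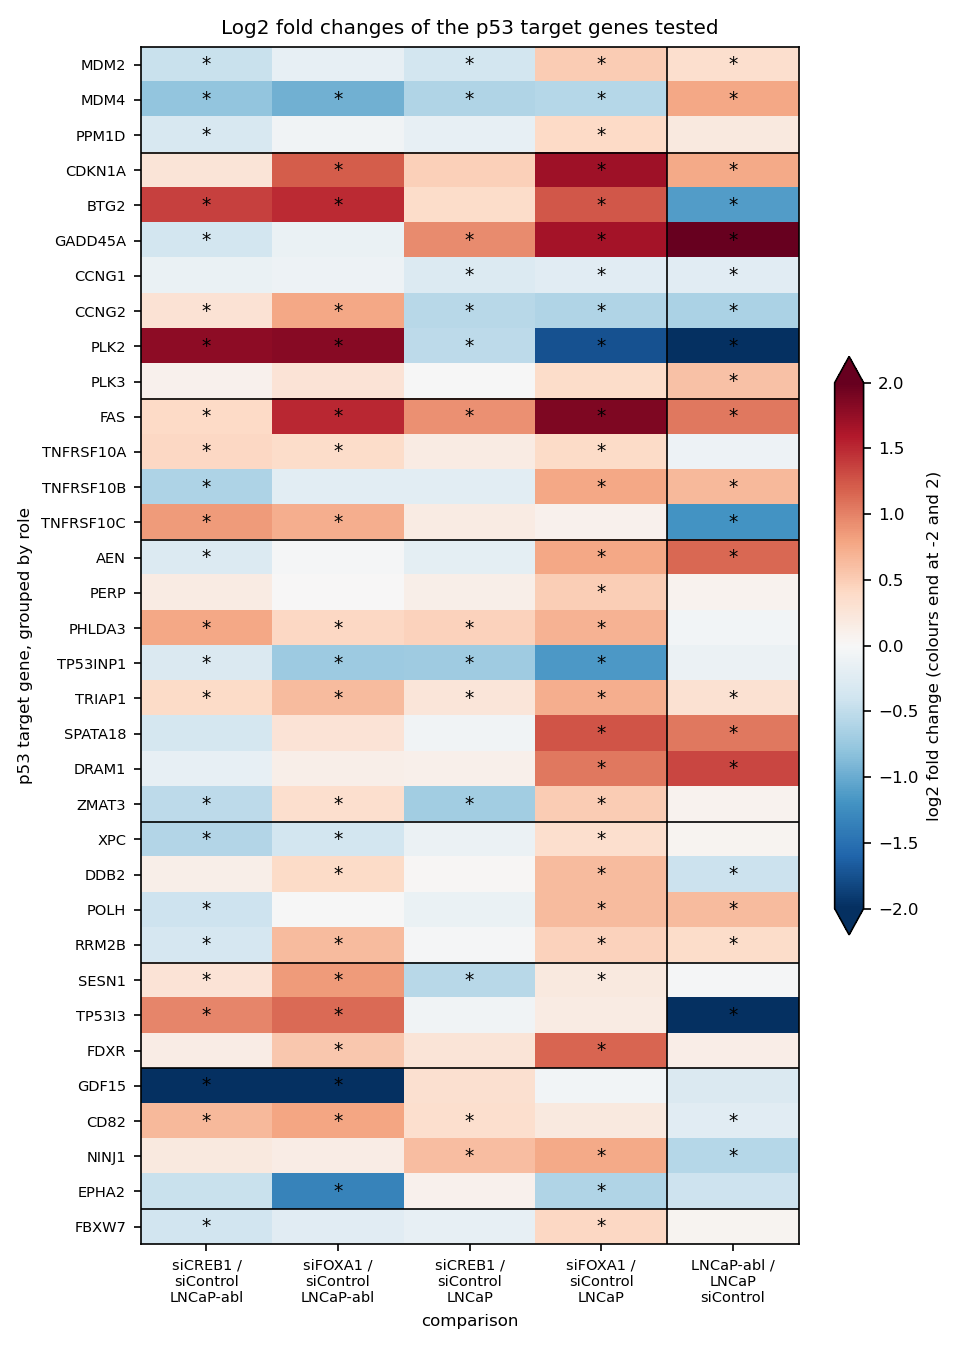
Log2 fold change (colour, red for higher and blue for lower, colours ending at -2 and 2) of the 34 tested p53 target genes, in rows grouped by role with lines between roles, for 4 knockdown comparisons and the comparison of the lines (columns). Stars mark an adjusted p below 0.05; MDM4 and TP53INP1 are blue and starred in all 4 knockdown columns, and FAS, PHLDA3 and TRIAP1 are red and starred in them.

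The genes that feed back on p53 parted from each other. MDM4, which binds and inhibits p53, fell with both siRNAs in both lines, whereas MDM2, which marks p53 for destruction, fell with siCREB1 and rose with siFOXA1 in LNCaP. MDM4 stood at 41.8 and 40.6 CPM in abl siCREB1 and 36.3 and 37.2 CPM in abl siFOXA1, against 67.3 and 76.7 CPM in abl siControl. Its LNCaP levels were 25.7 and 29.1 CPM with siCREB1 and 27.1 and 28.8 CPM with siFOXA1, against 39.4 and 44.0 CPM with siControl. Every knockdown library lay below both control libraries of its line. Its log2 fold change was -0.79 ± 0.09 with siCREB1 and -0.96 ± 0.09 with siFOXA1 in abl, and -0.60 ± 0.09 with siCREB1 and -0.57 ± 0.09 with siFOXA1 in LNCaP (edgeR, adjusted p from 5.43e-07 to 0.000162). MDM2 stood at 153.0 and 130.8 CPM in abl siCREB1 and 188.4 and 157.6 CPM in abl siFOXA1, against 200.4 and 185.4 CPM in abl siControl. In LNCaP it stood at 119.0 and 119.7 CPM with siCREB1 and 216.0 and 218.9 CPM with siFOXA1, against 155.0 and 152.9 CPM with siControl. The abl siFOXA1 libraries overlapped their controls, and the other 3 knockdown groups did not. MDM2 changed by -0.45 ± 0.09 in abl and -0.37 ± 0.09 in LNCaP with siCREB1, and by 0.50 ± 0.09 in LNCaP with siFOXA1 (edgeR, adjusted p = 0.000692, 0.00472 and 0.000305). In abl the siFOXA1 value was -0.16 ± 0.09 (edgeR, adjusted p = 0.132), and the lines differed in this effect by -0.66 ± 0.12 (edgeR, adjusted p = 0.000976). Without the first abl siFOXA1 library that abl value was -0.29, a larger fall, so that the uncalled value with all libraries rested on that 1 library. With a block for same-numbered libraries within each line it was -0.16 and was called lower (edgeR, adjusted p = 0.0334). PPM1D, a phosphatase that switches off p53 and its kinases, fell with siCREB1 in abl by -0.32 ± 0.09 and rose with siFOXA1 in LNCaP by 0.40 ± 0.09 (edgeR, adjusted p = 0.00818 and 0.00178). The PPM1D call in abl was lost without the second abl siCREB1 library (-0.27, adjusted p = 0.0741, edgeR) or the first abl siControl library (-0.32, adjusted p = 0.0622, edgeR).

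**Figure D3:**
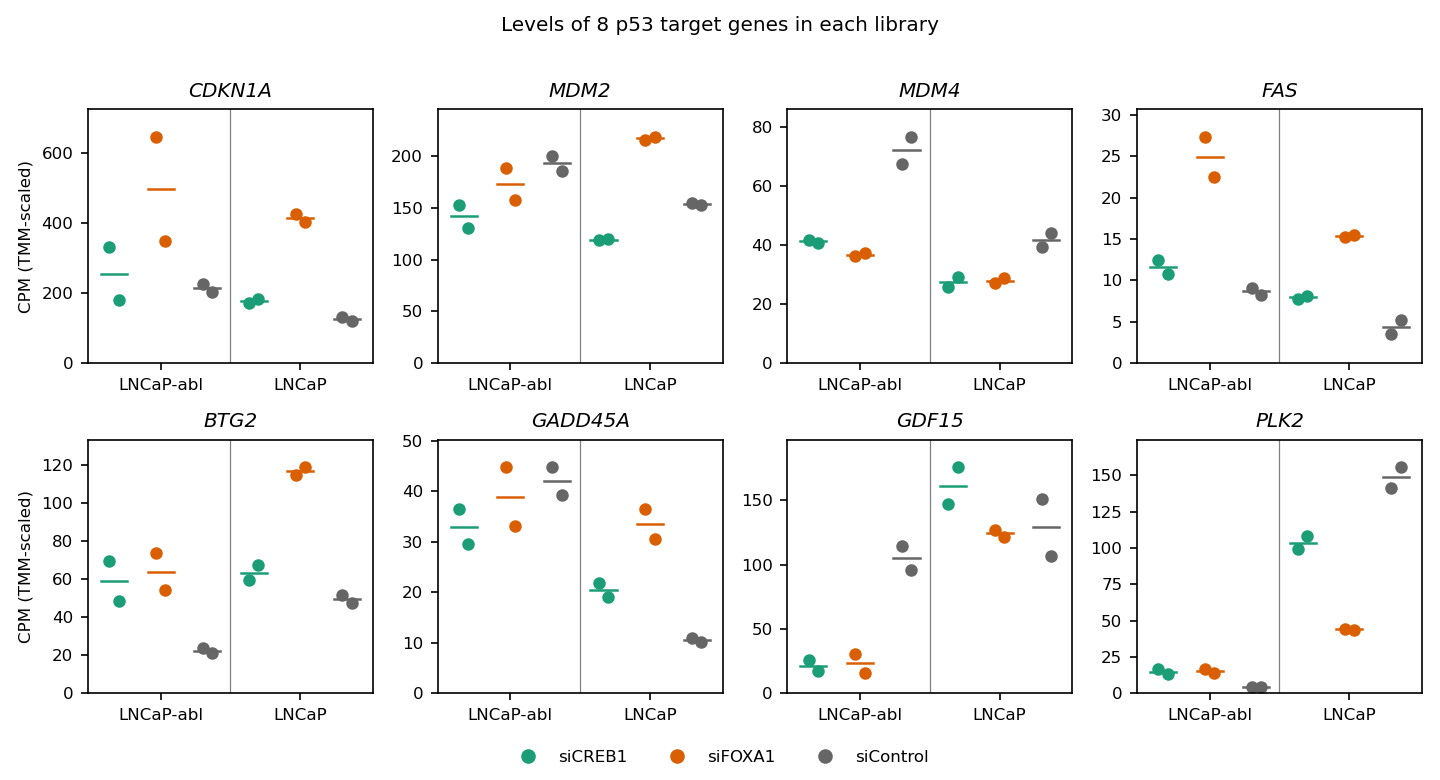
Level in CPM (linear axis from 0) of 8 p53 target genes in each of the 12 libraries (points), with group means of 2 libraries (lines), abl left of LNCaP, and siCREB1, siFOXA1 and siControl from left to right in each line. CDKN1A and FAS are highest with siFOXA1 in both lines, MDM4 is highest in siControl, and PLK2 lies at 16.7 CPM or lower in abl and at 43.5 CPM or higher in LNCaP.

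Among the 7 genes of cell cycle arrest and growth, CDKN1A and BTG2 rose with siFOXA1 in both lines, whereas PLK2 and CCNG2 rose in abl and fell in LNCaP with either siRNA. CDKN1A, the inhibitor of cyclin-dependent kinases p21, stood at 330.0 and 179.9 CPM in abl siCREB1 and 646.3 and 347.1 CPM in abl siFOXA1, against 224.7 and 203.2 CPM in abl siControl. Its levels in LNCaP were 171.4 and 183.7 CPM with siCREB1 and 424.8 and 403.3 CPM with siFOXA1, against 132.8 and 121.5 CPM with siControl. The siFOXA1 libraries of both lines lay above all their controls, but the 2 abl libraries of either knockdown lay far apart, and the abl siCREB1 pair straddled its controls. CDKN1A rose with siFOXA1 by 1.21 ± 0.25 in abl and 1.70 ± 0.26 in LNCaP (edgeR, adjusted p = 0.00101 and 0.000101). Group means were 496.7 ± 211.5 CPM in abl siFOXA1 and 213.9 ± 15.2 CPM in abl siControl, and 414.0 ± 15.2 CPM in LNCaP siFOXA1 and 127.1 ± 7.94 CPM in LNCaP siControl (SD, n = 2 each). With siCREB1 the value was 0.25 ± 0.25 in abl and 0.48 ± 0.25 in LNCaP (edgeR, adjusted p = 0.441 and 0.157). The abl siCREB1 value was -0.25 without the first abl siCREB1 library and 0.63 without the second (edgeR, adjusted p = 0.452 and 0.0462), so that 1 library set its sign. In LNCaP the siCREB1 value passed the threshold when only LNCaP libraries entered the fit (0.50, adjusted p = 0.00136, edgeR) and with no filter on low counts (0.48, adjusted p = 0.0309, edgeR).

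BTG2, an antiproliferative cofactor of mRNA deadenylation, rose in 3 of the 4 comparisons. It stood at 69.3 and 48.3 CPM in abl siCREB1 and 73.4 and 54.4 CPM in abl siFOXA1, against 23.6 and 21.1 CPM in abl siControl. In LNCaP it stood at 59.5 and 67.2 CPM with siCREB1 and 114.8 and 118.8 CPM with siFOXA1, against 51.4 and 47.3 CPM with siControl. All knockdown libraries lay above the controls of their line. The log2 fold changes were 1.37 ± 0.17 with siCREB1 and 1.49 ± 0.16 with siFOXA1 in abl, and 1.24 ± 0.15 with siFOXA1 in LNCaP (edgeR, adjusted p from 3.6e-06 to 1.37e-05). With siCREB1 in LNCaP it was 0.36 ± 0.15 (edgeR, adjusted p = 0.0795). GADD45A, a growth arrest and DNA damage protein, stood at 36.4 and 29.6 CPM in abl siCREB1 and 44.7 and 33.1 CPM in abl siFOXA1, against 44.8 and 39.3 CPM in abl siControl. LNCaP levels of the gene were 21.8 and 19.0 CPM with siCREB1 and 36.4 and 30.6 CPM with siFOXA1, against 11.0 and 10.1 CPM with siControl. In LNCaP every knockdown library lay above both controls, and in abl none lay above the higher control. GADD45A rose in LNCaP by 0.94 ± 0.16 with siCREB1 and 1.66 ± 0.16 with siFOXA1 (edgeR, adjusted p = 0.000565 and 1.66e-06). In abl the siFOXA1 value was -0.13 ± 0.14 (edgeR, adjusted p = 0.45) and the siCREB1 value -0.37 ± 0.14 (edgeR, adjusted p = 0.0439). The siCREB1 call in abl was lost without the second abl siCREB1 library (-0.21, adjusted p = 0.338, edgeR) or the first abl siControl library (-0.24, adjusted p = 0.34, edgeR).

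PLK2, a polo-like kinase, moved in opposite directions in the 2 lines. It stood at 16.7 and 13.2 CPM in abl siCREB1 and 16.5 and 14.0 CPM in abl siFOXA1, against 4.33 and 4.23 CPM in abl siControl. In LNCaP it stood at 99.0 and 108.0 CPM with siCREB1 and 44.6 and 43.5 CPM with siFOXA1, against 141.2 and 155.7 CPM with siControl. The knockdown libraries lay above the controls in abl and below them in LNCaP, and every abl library lay below every LNCaP library. PLK2 rose in abl by 1.79 ± 0.15 with siCREB1 and 1.82 ± 0.15 with siFOXA1, and fell in LNCaP by -0.52 ± 0.09 with siCREB1 and -1.75 ± 0.09 with siFOXA1 (edgeR, adjusted p from 7.63e-09 to 0.000562). CCNG2, a cyclin of cells that leave the cycle, followed the same signs, with 0.29 ± 0.08 and 0.77 ± 0.08 in abl and -0.55 ± 0.07 and -0.60 ± 0.07 in LNCaP for siCREB1 and siFOXA1 (edgeR, adjusted p from 1.16e-06 to 0.00536). The smallest of these, with siCREB1 in abl, was lost without the second abl siControl library (0.24, adjusted p = 0.0546, edgeR). CCNG1, another cyclin of the family, was called lower in LNCaP with siCREB1 (-0.27 ± 0.08) and siFOXA1 (-0.22 ± 0.08; edgeR, adjusted p = 0.0219 and 0.0429). Either CCNG1 call was lost without any 1 of the 4 libraries it rested on, at -0.30 to -0.20 with siCREB1 and -0.24 to -0.16 with siFOXA1. PLK3 was not called in any knockdown comparison, at 3.39 to 6.76 CPM over all libraries.

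Of the 4 genes grouped as death receptors, 3 rose with siFOXA1 in each line, although not the same 3. The 3 in abl include TNFRSF10C, a decoy, and not TNFRSF10B. Of all genes, 24.4% rose with siFOXA1 in LNCaP and 29.9% in abl, and a role group has too few genes for a share to be read from it. FAS, the receptor of FAS ligand, stood at 12.5 and 10.8 CPM in abl siCREB1 and 27.4 and 22.5 CPM in abl siFOXA1, against 9.11 and 8.25 CPM in abl siControl. The LNCaP values were 7.81 and 8.10 CPM with siCREB1 and 15.3 and 15.5 CPM with siFOXA1, against 3.54 and 5.25 CPM with siControl. All knockdown libraries lay above the controls of their line, and those of siFOXA1 lay highest. FAS rose with siFOXA1 by 1.50 ± 0.15 in abl and 1.86 ± 0.16 in LNCaP, and with siCREB1 by 0.40 ± 0.15 in abl and 0.91 ± 0.17 in LNCaP (edgeR, adjusted p = 1.15e-06, 7.4e-07, 0.0448 and 0.00112). The FAS call with siCREB1 in abl was lost without the first abl siCREB1 library (0.30, adjusted p = 0.228, edgeR), the first abl siControl library (0.51, adjusted p = 0.105, edgeR) or the second (0.35, adjusted p = 0.129, edgeR).

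TNFRSF10B, a TRAIL receptor with a death domain, had 149.8 and 128.7 CPM in abl siCREB1 and 193.5 and 174.6 CPM in abl siFOXA1, against 196.8 and 231.9 CPM in abl siControl. In LNCaP it had 113.2 and 122.0 CPM with siCREB1 and 234.7 and 234.5 CPM with siFOXA1, against 132.8 and 139.7 CPM with siControl. Only the siFOXA1 libraries of LNCaP lay above their controls. It fell with siCREB1 in abl by -0.62 ± 0.09 and rose with siFOXA1 in LNCaP by 0.78 ± 0.09 (edgeR, adjusted p = 6.1e-05 and 7.92e-06). TNFRSF10C, a decoy TRAIL receptor without a death domain, had 8.29 and 9.20 CPM in abl siCREB1 and 7.95 and 8.08 CPM in abl siFOXA1, against 5.06 and 4.35 CPM in abl siControl. It rose in abl by 0.85 ± 0.13 with siCREB1 and 0.72 ± 0.13 with siFOXA1 (edgeR, adjusted p = 8e-05 and 0.000283), and was not called in LNCaP. TNFRSF10A, the other TRAIL receptor with a death domain, was called higher in abl with siCREB1 (0.41 ± 0.12) and siFOXA1 (0.36 ± 0.12) and in LNCaP with siFOXA1 (0.39 ± 0.11; edgeR, adjusted p = 0.00875, 0.0166 and 0.01). The siFOXA1 calls of TNFRSF10A were lost at 0.27 to 0.43 in abl without the second siFOXA1 library or either siControl library, and at 0.31 to 0.35 in LNCaP without the second siFOXA1 or the first siControl library. TRAIL receptors are related in sequence, so that reads fitting several of them may be missing from the authors' counts, which was not tested.

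Among the 8 effectors of apoptosis and autophagy, 7 rose with siFOXA1 in LNCaP and 3 in abl, beside 24.4% and 29.9% of all genes. The 3 of 8 in abl are not far above the share of all genes there. SPATA18, a regulator of mitochondrial quality control, had 16.3 and 11.2 CPM in abl siCREB1 and 23.8 and 18.4 CPM in abl siFOXA1, against 16.9 and 18.4 CPM in abl siControl. Its LNCaP levels were 8.73 and 7.22 CPM with siCREB1 and 20.7 and 19.1 CPM with siFOXA1, against 7.08 and 10.1 CPM with siControl. Only the LNCaP siFOXA1 libraries stood clear above their controls. The autophagy modulator DRAM1 had 22.4 and 19.7 CPM in LNCaP siFOXA1 against 10.0 and 10.4 CPM in LNCaP siControl, but 28.5 and 26.5 CPM in abl siFOXA1 against 25.5 and 25.6 CPM in abl siControl. Its siFOXA1 libraries in LNCaP thus stood near the level that abl libraries had in every group. With siFOXA1 in LNCaP the rise of SPATA18 was 1.25 ± 0.19, that of DRAM1 1.05 ± 0.10, and that of the apoptosis-enhancing nuclease AEN 0.77 ± 0.11 (edgeR, adjusted p = 0.000117, 1e-06 and 5.12e-05). PERP, a membrane protein of desmosomes that takes part in apoptosis, rose with siFOXA1 in LNCaP by 0.49 ± 0.08 (edgeR, adjusted p = 0.000115) and was not called elsewhere. PHLDA3, which restrains the kinase AKT, rose by 0.77 ± 0.14 with siCREB1 and 0.41 ± 0.14 with siFOXA1 in abl, and by 0.46 ± 0.13 with siCREB1 and 0.70 ± 0.13 with siFOXA1 in LNCaP (edgeR, adjusted p from 0.000322 to 0.0208). TRIAP1, an inhibitor of apoptosis, rose by 0.38 ± 0.08 and 0.63 ± 0.08 in abl and by 0.24 ± 0.08 and 0.73 ± 0.08 in LNCaP for siCREB1 and siFOXA1 (edgeR, adjusted p from 5e-06 to 0.0296).

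TP53INP1, a stress protein that promotes p53 phosphorylation and autophagy, fell in all 4 knockdown comparisons and was the 1 gene of this group that fell with siFOXA1 in either line. It had 287.2 and 278.4 CPM in abl siCREB1 and 220.4 and 199.3 CPM in abl siFOXA1, against 357.5 and 334.9 CPM in abl siControl. In LNCaP it had 220.7 and 235.2 CPM with siCREB1 and 151.2 and 184.4 CPM with siFOXA1, against 388.2 and 358.8 CPM with siControl. No knockdown library overlapped the controls of its line, and siFOXA1 lay lowest in both lines. The log2 fold changes were -0.29 ± 0.09 and -0.72 ± 0.09 in abl and -0.71 ± 0.09 and -1.15 ± 0.09 in LNCaP for siCREB1 and siFOXA1 (edgeR, adjusted p from 1.85e-07 to 0.0116). ZMAT3, an RNA-binding zinc finger protein, fell with siCREB1 by -0.52 ± 0.12 in abl and -0.69 ± 0.12 in LNCaP, and rose with siFOXA1 by 0.33 ± 0.12 in abl and 0.51 ± 0.12 in LNCaP (edgeR, adjusted p = 0.00294, 0.000675, 0.0342 and 0.00279). ZMAT3 had 37.2 and 34.3 CPM in LNCaP siCREB1 and 82.2 and 82.3 CPM in LNCaP siFOXA1, against 60.4 and 54.6 CPM in LNCaP siControl, with no overlap. Calls of this group that 1 library ended with siCREB1 in abl were those of ZMAT3 (-0.32 and -0.42), TP53INP1 (-0.26 and -0.23) and AEN (main value -0.27 ± 0.10, then -0.16 and -0.13), without the second siCREB1 and without the first siControl library. With siFOXA1 in abl, ZMAT3 (0.17 and 0.26) and PHLDA3 (0.29 and 0.27) were lost without the first siFOXA1 and without the second siControl library. With siCREB1 in LNCaP, PHLDA3 was lost at 0.44 and 0.26 without the second siCREB1 and the second siControl library, and TRIAP1 at 0.21 to 0.25 without the second siCREB1 or either siControl library.

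All 4 genes of DNA repair and nucleotide supply rose with siFOXA1 in LNCaP, where 24.4% of all genes rose. The rises were 0.33 ± 0.07 for XPC and 0.63 ± 0.09 for DDB2, both of which recognise damage in nucleotide excision repair, 0.63 ± 0.08 for the translesion polymerase POLH, and 0.46 ± 0.08 for the ribonucleotide reductase subunit RRM2B (edgeR, adjusted p from 1.63e-05 to 0.0013). In abl siFOXA1 raised RRM2B by 0.63 ± 0.08 and DDB2 by 0.38 ± 0.10 and lowered XPC by -0.37 ± 0.07, and POLH stood at -0.01 ± 0.08 (edgeR, adjusted p = 1.35e-05, 0.00589, 0.000464 and 0.953). XPC had 70.7 and 63.6 CPM in abl siFOXA1 against 90.2 and 82.6 CPM in abl siControl, but 106.7 and 103.4 CPM in LNCaP siFOXA1 against 85.0 and 82.3 CPM in LNCaP siControl. These groups did not overlap within either line. With siCREB1 in abl XPC, POLH and RRM2B fell, by -0.59 ± 0.07, -0.41 ± 0.08 and -0.33 ± 0.08 (edgeR, adjusted p = 1.15e-05, 0.000582 and 0.0036). In LNCaP none of the 4 was called with siCREB1 (edgeR, adjusted p from 0.21 to 0.87).

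All 3 redox and metabolic targets rose with siFOXA1 in abl, and 2 of them, SESN1 and TP53I3, with siCREB1 there. The shares of all genes that rose in abl were 29.9% with siFOXA1 and 27.5% with siCREB1. SESN1, a sestrin that restrains the growth kinase mTORC1, had 338.2 and 331.8 CPM in abl siCREB1 and 506.4 and 485.0 CPM in abl siFOXA1, against 281.8 and 267.7 CPM in abl siControl. LNCaP values of SESN1 were 175.3 and 206.7 CPM with siCREB1 and 308.7 and 331.7 CPM with siFOXA1, against 283.6 and 278.2 CPM with siControl. The siCREB1 libraries lay above their controls in abl and below them in LNCaP. SESN1 changed with siCREB1 by 0.28 ± 0.07 in abl and -0.56 ± 0.07 in LNCaP, and with siFOXA1 by 0.85 ± 0.07 in abl and 0.19 ± 0.07 in LNCaP (edgeR, adjusted p = 0.00556, 7.3e-05, 3.92e-07 and 0.0472). The last of these calls was lost at 0.16 to 0.23 without the second LNCaP siFOXA1 library or either LNCaP siControl library. FDXR, the mitochondrial ferredoxin reductase, had 60.2 and 56.4 CPM in LNCaP siFOXA1 against 26.3 and 25.3 CPM in LNCaP siControl, and 42.5 and 40.2 CPM in abl siFOXA1 against 29.8 and 26.1 CPM in abl siControl. It rose by 1.17 ± 0.10 in LNCaP and 0.54 ± 0.10 in abl (edgeR, adjusted p = 3.52e-07 and 0.000311) and was not called with siCREB1. TP53I3, a quinone oxidoreductase, had 2.97 and 1.74 CPM in abl siCREB1 and 2.76 and 2.46 CPM in abl siFOXA1, against 1.17 and 1.23 CPM in abl siControl. Its levels in LNCaP were 7.92 and 8.32 CPM with siCREB1 and 9.11 and 10.1 CPM with siFOXA1, against 7.55 and 9.80 CPM with siControl. The abl libraries of TP53I3 lay all below those of LNCaP, and in LNCaP the groups overlapped. It was called higher in abl by 0.98 ± 0.29 with siCREB1 and 1.14 ± 0.29 with siFOXA1 (edgeR, adjusted p = 0.0114 and 0.00361). The siCREB1 call was lost at 0.56 without the first abl siCREB1 library and at 0.94 without the first abl siControl library, and the siFOXA1 call at 1.10 without the first abl siControl library (edgeR, adjusted p = 0.155, 0.154 and 0.0853).

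Of the secreted and membrane proteins, GDF15 changed most, and only in abl was it called. GDF15, a stress-induced cytokine of the TGF-beta family, had 25.7 and 17.3 CPM in abl siCREB1 and 30.9 and 15.8 CPM in abl siFOXA1, against 114.9 and 96.0 CPM in abl siControl. In LNCaP it had 146.9 and 176.1 CPM with siCREB1 and 127.2 and 121.9 CPM with siFOXA1, against 151.1 and 107.1 CPM with siControl. All 4 knockdown libraries of abl lay below every other library, and in LNCaP the knockdowns overlapped the controls. The fall in abl was -2.31 ± 0.25 with siCREB1 and -2.19 ± 0.25 with siFOXA1, to 0.202 and 0.219 of the control level (edgeR, adjusted p = 4.42e-06 and 4.56e-06). In LNCaP the values were 0.32 ± 0.22 and -0.06 ± 0.22 (edgeR, adjusted p = 0.279 and 0.847). The FOXA motif printed above stands in the promoter of GDF15, and whether it bears on these values was not tested. PERP, the other gene with this motif, stood with siFOXA1 at 0.00 ± 0.08 in abl and 0.49 ± 0.08 in LNCaP (edgeR, adjusted p = 0.987 and 0.000115).

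EPHA2, a receptor tyrosine kinase, had 3.70 and 4.38 CPM in abl siCREB1 and 2.02 and 2.33 CPM in abl siFOXA1, against 5.39 and 5.80 CPM in abl siControl. LNCaP values were 8.28 and 7.26 CPM with siCREB1 and 4.22 and 5.39 CPM with siFOXA1, against 8.60 and 5.64 CPM with siControl. The siFOXA1 libraries lay below their controls in both lines, and the siCREB1 libraries overlapped them in LNCaP. EPHA2 fell with siFOXA1 by -1.34 ± 0.23 in abl and -0.60 ± 0.19 in LNCaP (edgeR, adjusted p = 0.000232 and 0.0189). The LNCaP call was lost at -0.20 without the first LNCaP siControl library and at -0.41 without the first LNCaP siFOXA1 library (edgeR, adjusted p = 0.478 and 0.179). Of the 2 genes whose windows hold the full cAMP response element, EPHA2 was not called with siCREB1 in either line (-0.45 ± 0.21 in abl and 0.09 ± 0.18 in LNCaP; edgeR, adjusted p = 0.0932 and 0.741). PPM1D, the other, was called lower with siCREB1 in abl as given above, and was at -0.16 ± 0.09 in LNCaP (edgeR, adjusted p = 0.187). NINJ1, a membrane protein of cell rupture, rose in LNCaP by 0.61 ± 0.09 with siCREB1 and 0.76 ± 0.09 with siFOXA1 (edgeR, adjusted p = 0.000135 and 9.17e-06). NINJ1 had 143.7 and 148.2 CPM in LNCaP siCREB1 and 166.8 and 158.3 CPM in LNCaP siFOXA1, against 103.6 and 87.4 CPM in LNCaP siControl, with no overlap. CD82, a tetraspanin that restrains cell spread, rose in abl by 0.65 ± 0.08 with siCREB1 and 0.79 ± 0.08 with siFOXA1 and in LNCaP with siCREB1 by 0.34 ± 0.08 (edgeR, adjusted p from 2.44e-06 to 0.005). FBXW7, the substrate receptor of a ubiquitin ligase for cyclin E and MYC, rose with siFOXA1 in LNCaP by 0.42 ± 0.10 and fell with siCREB1 in abl by -0.38 ± 0.10 (edgeR, adjusted p = 0.00251 and 0.00677). The FBXW7 fall was lost at -0.28 without the first abl siCREB1 library (edgeR, adjusted p = 0.0797).

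Whether the lines differed in their response was tested as the difference of the effects in the same fit. For siFOXA1, 7 of the 34 genes had a higher effect in abl than in LNCaP (20.6%), against 17.9% of all genes, and 15 a lower one (44.1%), against 14.7% of all. The median difference was -0.38 for the 34 and 0.05 for all genes. Of the 11 genes that siFOXA1 raised in LNCaP and that were not called in abl, all 11 differed between the lines (AEN, DRAM1, FBXW7, GADD45A, MDM2, NINJ1, PERP, POLH, PPM1D, SPATA18 and TNFRSF10B). Because these 11 were picked by their calls in the same fit, a called difference was favoured in advance. A further 11 rose in both lines, of which 2, SESN1 and FDXR, differed in size. For siCREB1, 7 genes had a higher effect in abl (20.6%), against 14.8% of all, and 5 a lower one (14.7%), against 10.8% of all. Those 5 became 3 without the second abl siCREB1 library. The siCREB1 effect had the same called direction in both lines for 8 genes, 4 higher (CD82, FAS, PHLDA3, TRIAP1) and 4 lower (MDM2, MDM4, TP53INP1, ZMAT3), and opposite called directions for 4 (CCNG2, PLK2, SESN1 and GADD45A). For these pairings of calls in the 2 lines, with either siRNA, the shares over all genes were not computed, so the counts describe these genes only.

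The largest differences were those of PLK2, GDF15 and GADD45A for either siRNA. The siFOXA1 effect in abl minus that in LNCaP was 3.57 ± 0.17 for PLK2, -2.13 ± 0.33 for GDF15, -1.79 ± 0.21 for GADD45A, 1.37 ± 0.11 for CCNG2, -1.0 ± 0.13 for TNFRSF10B and -0.98 ± 0.27 for SPATA18 (edgeR, adjusted p from 9.09e-09 to 0.0116). The last was lost at -0.73 without the first LNCaP siControl library (edgeR, adjusted p = 0.0576). The siCREB1 effect in abl minus that in LNCaP was -2.63 ± 0.33 for GDF15, 2.31 ± 0.17 for PLK2, -1.31 ± 0.22 for GADD45A, 1.05 ± 0.34 for TP53I3, 1.01 ± 0.22 for BTG2, and 0.84 ± 0.11 for both CCNG2 and SESN1 (edgeR, adjusted p from 8.16e-07 to 0.0345). The TP53I3 difference was lost at 0.61 to 1.08 without any of 6 single libraries and rests on low counts. For CDKN1A no difference was called, at -0.49 ± 0.36 for siFOXA1 and -0.23 ± 0.36 for siCREB1 (edgeR, adjusted p = 0.33 and 0.692). These wide errors do not show that CDKN1A responds alike in both lines, and without the first abl siFOXA1 library its siFOXA1 difference was -1.02 (edgeR, adjusted p = 0.0254).

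**Figure D4:**
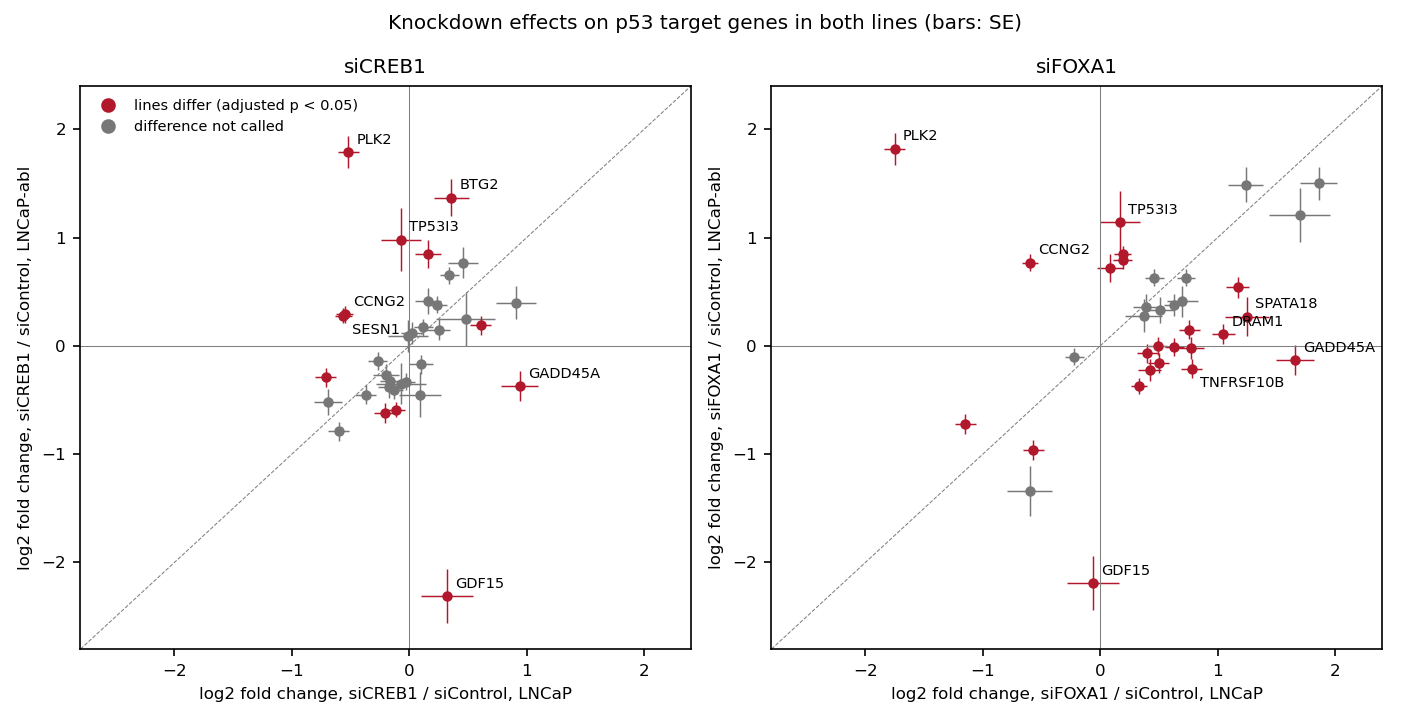
Log2 fold change of each of the 34 p53 target genes in abl (vertical) against that in LNCaP (horizontal), with SE bars, for siCREB1 (left) and siFOXA1 (right); red points have effects that differ between the lines at an adjusted p below 0.05, the dashed line marks equal effects and the genes with the widest called differences are named. PLK2 lies high on the left of both panels and GDF15 low in both, and in the siFOXA1 panel a row of red points lies right of 0 near the horizontal axis, genes higher in LNCaP with little change in abl.

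The control state of the lines already differed for many of these genes. PLK2 was lower in abl than in LNCaP by a log2 difference of -5.10 ± 0.13 and TP53I3 by -2.85 ± 0.24, and GADD45A was higher by 2.01 ± 0.16, DRAM1 by 1.33 ± 0.10 and AEN by 1.15 ± 0.11 (edgeR, adjusted p from 5.74e-13 to 4.64e-07). TNFRSF10C was lower in abl by -1.19 ± 0.13 (edgeR, adjusted p = 1.6e-06). CDKN1A was higher in abl by 0.75 ± 0.26, MDM2 by 0.33 ± 0.09, MDM4 by 0.78 ± 0.09 and FAS by 1.06 ± 0.18 (edgeR, adjusted p from 2.49e-06 to 0.0197). The call of CDKN1A was lost at 0.69 without the first abl or the second LNCaP siControl library (edgeR, adjusted p = 0.0893 and 0.0655). Those of PLK3 (0.58 ± 0.17, then 0.51 and 0.42 without the first siControl library of abl and of LNCaP), TRIAP1 (0.30 ± 0.08, then 0.25 without the first abl siControl library), CCNG1 (-0.22 ± 0.08, then -0.23 to -0.19 without any 1 of 4 libraries) and CD82 (-0.23 ± 0.09, then -0.27 to -0.18 without either abl or the first LNCaP library) were lost as well. The genes called higher with siFOXA1 in LNCaP and not in abl were mixed in the controls. AEN, DRAM1, GADD45A, MDM2, POLH, SPATA18 and TNFRSF10B were called higher in the abl controls. FBXW7, PERP and PPM1D were not called, and NINJ1 was lower in abl by -0.57 ± 0.09 (edgeR, adjusted p = 8.6e-05). GADD45A had 44.8 and 39.3 CPM in abl siControl against 11.0 and 10.1 CPM in LNCaP siControl, and AEN had 66.6 and 57.4 CPM in abl siControl against 29.2 and 27.0 CPM in LNCaP siControl. The LNCaP siControl libraries enter both comparisons, and a link between control level and response was not tested.

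The 2 libraries of a group did not agree equally well for these genes. In abl, 27 of the 34 were higher in the first than in the second siCREB1 library, 28 of 34 in the siFOXA1 pair and 24 of 34 in the siControl pair, whereas over all genes these shares were 49%, 51.5% and 55.5%. In LNCaP the numbers were 13, 18 and 19 of 34 in the same order, beside 48.2%, 50.6% and 49.9% of all genes. The median log2 ratio of the first to the second library, after adding 0.5 CPM to each, was 0.11, 0.15 and 0.09 in abl siCREB1, siFOXA1 and siControl, and -0.06, 0.02 and 0.02 in LNCaP in the same order. CDKN1A lay among the highest ratios in both abl knockdown pairs, with 330.0 against 179.9 CPM and 646.3 against 347.1 CPM. The part of this spread in the abl results was not tested beyond the refits without single libraries.

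**Figure D5:**
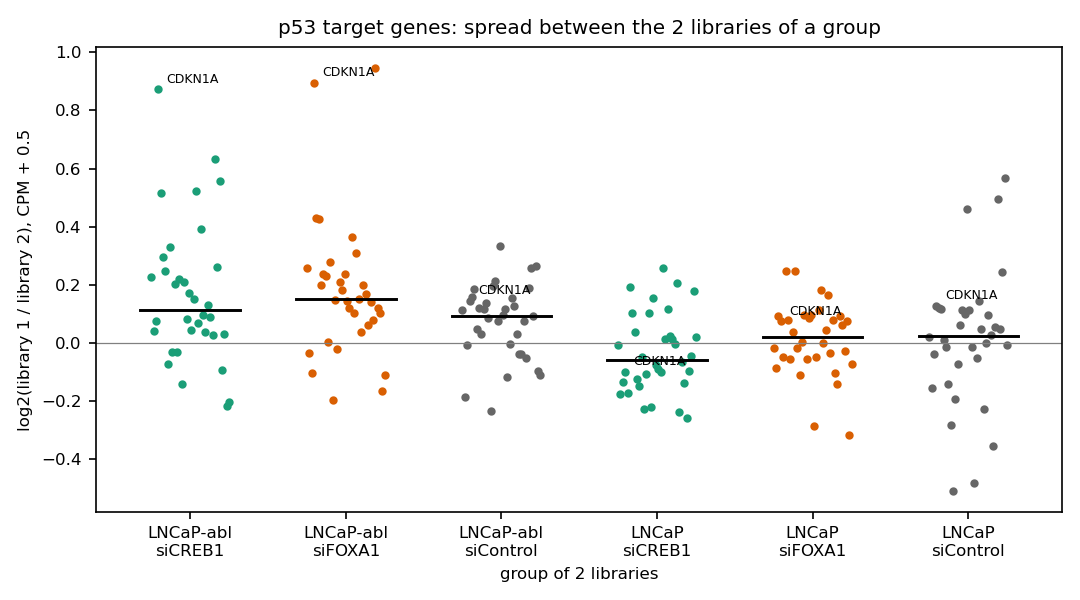
Log2 ratio of the first to the second library of each group for the 34 p53 target genes (points) with their median (black line), after adding 0.5 CPM; CDKN1A is named. The medians are 0.11, 0.15 and 0.09 in the 3 abl groups and between -0.06 and 0.02 in the 3 LNCaP groups.

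Other genes of the pathway were taken from 3 further lists. Of 42 other p53 targets, 39 were tested. With siFOXA1, 19 rose (48.7%, against 24.4% of all genes) and 6 fell (15.4%, against 25.5%) in LNCaP, and 16 rose (41%, against 29.9%) and 8 fell (20.5%, against 26.5%) in abl. With siCREB1, 14 rose (35.9%) and 10 fell (25.6%) in either line, against 17.8% and 19.8% of all genes in LNCaP and 27.5% and 23.7% in abl, so that the share that fell in abl was near that of all genes. Their median was 0.39 with siFOXA1 in LNCaP and 0.13 in abl, and 0.05 and 0.16 with siCREB1 in LNCaP and abl. The interferon-inducible ligase TRIM22 rose with siFOXA1 in LNCaP by 4.88 ± 0.35 and with siCREB1 by 1.75 ± 0.47 (edgeR, adjusted p = 1.09e-07 and 0.0102), and SFN, the 14-3-3 protein sigma of cell cycle arrest, with siFOXA1 by 2.66 ± 0.25 in LNCaP and 2.46 ± 0.46 in abl (edgeR, adjusted p = 1.31e-06 and 0.000425). In abl TRIM22 rose with siFOXA1 by 1.82 ± 0.38 and was not called with siCREB1 (edgeR, adjusted p = 0.000988 and 0.184). SERPINB5 (maspin) rose with siFOXA1 by 3.42 ± 0.13 in abl and 1.17 ± 0.11 in LNCaP (edgeR, adjusted p = 1.37e-10 and 1.09e-06). With siCREB1 it rose in abl by 1.06 ± 0.14 and fell in LNCaP by -0.47 ± 0.11 (edgeR, adjusted p = 2.69e-05 and 0.00556). SESN2, another sestrin, fell with siCREB1 in abl by -2.49 ± 0.10, and E2F7, a repressor of the cell cycle that needs E2F itself, by -1.47 ± 0.22 there and by -2.57 ± 0.30 in LNCaP (edgeR, adjusted p = 5.08e-10, 7.4e-05 and 2.48e-05). SESN2 also fell with siFOXA1 in abl, by -2.32 ± 0.10, and rose in LNCaP by 0.35 ± 0.10 with siCREB1 and 0.92 ± 0.10 with siFOXA1 (edgeR, adjusted p = 3.95e-10, 0.0121 and 3.31e-06). E2F7 fell with siFOXA1 in abl by -2.33 ± 0.24 (edgeR, adjusted p = 2.14e-06) and was not called with it in LNCaP.

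Of 25 genes listed as regulators or relatives of p53, 24 were tested, and more fell than rose in all 4 comparisons. The list mixes genes that activate p53 with genes that restrain it, so these counts give no direction for p53. In abl, 11 fell with siCREB1 (45.8%, against 23.7% of all genes) and 10 with siFOXA1 (41.7%, against 26.5%). The 6 that rose there with either siRNA (25%) were near the 27.5% and 29.9% of all genes. In LNCaP, 13 fell with either siRNA (54.2%, against 19.8% with siCREB1 and 25.5% with siFOXA1 of all genes). Of the 24, 2 rose there with siCREB1 (8.33%, against 17.8%) and 5 with siFOXA1 (20.8%, against 24.4%). HIPK2, a kinase that phosphorylates p53, fell by -0.92 ± 0.17 with siCREB1 and -1.24 ± 0.17 with siFOXA1 in abl, and by -1.23 ± 0.17 with siCREB1 and -1.27 ± 0.17 with siFOXA1 in LNCaP (edgeR, adjusted p from 2.8e-05 to 0.000424). The damage kinase ATM fell with siCREB1 in abl by -1.01 ± 0.08, the acetyltransferase EP300 with siCREB1 in LNCaP by -0.60 ± 0.11, and SMYD2, a methyltransferase that acts on p53, fell with siFOXA1 by -1.42 ± 0.13 in abl and -1.19 ± 0.21 in LNCaP (edgeR, adjusted p from 2.38e-07 to 0.000595). Both ATM, at -1.01 to -0.38, and EP300, at -0.60 to -0.41, were called lower in all 4 comparisons.

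The 20 cell cycle genes known to be repressed through p53, p21 and the DREAM complex were mostly lower with every knockdown. All 20 fell with siFOXA1 in abl and all 20 with siCREB1 in LNCaP, 15 fell and 3 rose with siCREB1 in abl, and 11 fell and 1 rose with siFOXA1 in LNCaP. The shares that fell were 100%, 100%, 75% and 55%, against 26.5%, 19.8%, 23.7% and 25.5% of all genes. Their medians were -1.84 and -2.18 in the first pair and -0.90 and -0.54 in the second pair. CDC25C, the phosphatase of mitotic entry, fell by -3.44 ± 0.24 and the cyclin CCNB2 by -3.27 ± 0.19 with siFOXA1 in abl (edgeR, adjusted p = 4.67e-08 and 9.09e-09). With siCREB1, CCNB2 fell by -1.72 ± 0.17 and the CDK subunit CKS1B by -1.67 ± 0.09 in abl, and the survivin gene BIRC5 by -3.47 ± 0.19 and the centromeric histone CENPA by -3.36 ± 0.37 in LNCaP (edgeR, adjusted p from 6.2e-09 to 1.63e-05). With siFOXA1 in LNCaP, FOXM1, the factor that drives mitotic genes, fell by -1.17 ± 0.10 and the kinase PLK1 by -0.98 ± 0.16 (edgeR, adjusted p = 5.75e-07 and 0.000168). Such genes also follow the share of dividing cells, which was not analysed here.

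The authors' deposited tables list genes below an FDR of 0.05 for each knockdown, and all p53 targets listed there had the same sign as here. The authors' deposited table listed 25 of the 35 with siCREB1 and 21 with siFOXA1 in abl, and 14 with siCREB1 and 27 with siFOXA1 in LNCaP. Of these, 24, 21, 12 and 27 were also called here. The authors' deposited table held EPHA2 with siCREB1 in abl and CDKN1A and BTG2 with siCREB1 in LNCaP, which were not called here. CCNG1 and TRIAP1 with siCREB1, and SESN1 and CCNG1 with siFOXA1, were called here in LNCaP but are not in the authors' deposited table.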

How the data were processed

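RNA was sequenced from 6 groups, and 2 count columns per group were taken as 2 libraries. The deposited values are raw read counts per gene. For these counts, hg19 and the tools HTSeq 0.5.3p9, Bowtie2 2.1.0, TopHat2 2.0.8 and CASAVA 1.8 are named in the submitters' processing notes. The gene annotation and strand setting are not given in the sources used here, and the library kit per the labels' protocols does not mark strand. The authors' deposited tables give log2 fold changes and p-values, tied to edgeR 3.0.6 in the submitters' processing notes. All 8 repeated control columns were identical, and each library was used once.

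Reads assigned to no feature (54.8% to 58.3% of the counted total per library) or ambiguous (0.774% to 0.924%) were left out. The 15550 genes that passed filterByExpr entered 1 fit of 12 libraries with edgeR 4.0.16 in R 4.3.3 (TMM scaling, quasi-likelihood F-test, 6 residual degrees of freedom, biological coefficient of variation 0.0625), with Benjamini-Hochberg adjustment over all of them. The SE is the absolute log2 fold change over the square root of F. The test was checked on simulated counts. DESeq2 1.42.0 was an alternative. Numbers of reads and libraries limit the precision, and errors cover these libraries only.

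Members, lists and tests were chosen with earlier results of these data known. Genes named in full are CREB1, FOXA1, CDKN1A and MDM2, the 6 called members with the largest change per comparison whose libraries do not overlap, and the 2 called genes with the largest change of each further list per knockdown; 1 further gene is not reported here. Other members are named with values chosen after they were seen. Peaks were not used here, because gene starts of their build were not at hand. Promoter sequences are from RefSeq, GRCh38.p14.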

Additional observations from a re-analysis of the deposited data

Results flagged for a closer look

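All results in this section are differences between the lines in the effect of a knockdown, LNCaP-abl minus LNCaP on the log2 scale, tested in the same edgeR fit and past a Benjamini-Hochberg adjusted p of 0.05. For siFOXA1 the effect was higher in abl by 3.57 for PLK2, 1.37 for CCNG2, 0.97 for TP53I3, 0.66 for SESN1, 0.64 for TNFRSF10C, 0.60 for CD82 and 0.43 for TP53INP1. It was lower in abl for 15 genes, with differences of -2.13 for GDF15, -1.79 for GADD45A, -1.0 for TNFRSF10B, -0.98 for SPATA18, -0.94 for DRAM1, -0.79 for AEN, -0.70 for XPC and -0.66 for MDM2. Smaller ones were -0.64 for POLH, -0.64 for FBXW7, -0.63 for FDXR, -0.61 for NINJ1, -0.49 for PERP, -0.47 for PPM1D and -0.39 for MDM4. For siCREB1 the effect was higher in abl by 2.31 for PLK2, 1.05 for TP53I3, 1.01 for BTG2, 0.84 for SESN1, 0.84 for CCNG2, 0.69 for TNFRSF10C and 0.42 for TP53INP1. It was lower in abl for 5 genes, with differences of -2.63 for GDF15, -1.31 for GADD45A, -0.47 for XPC, -0.42 for NINJ1 and -0.40 for TNFRSF10B.

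PLK2 was called in opposite directions in the lines with both siRNAs, and it differed most between the siControl groups of the lines among the 34 genes. The differences of TP53INP1 and TP53I3 with both siRNAs, of MDM4 and SPATA18 with siFOXA1, and of TNFRSF10B and NINJ1 with siCREB1 were lost in at least 1 refit without a single library. With siCREB1 those of TNFRSF10B were -0.38 to -0.29, those of NINJ1 -0.45 to -0.27 and those of TP53INP1 0.35 to 0.43 in the refits that lost the call, and with siFOXA1 those of MDM4 were -0.41 to -0.30 and those of TP53INP1 0.28 to 0.38. The TP53I3 difference with siFOXA1 was lost in most refits without a single library, at 0.79 to 1.04. It was also lost under DESeq2 with all libraries (0.96, adjusted p = 0.0556, DESeq2 Wald test). Groups of 2 libraries are too small for a test of a library that stands apart from its group.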

How the results depend on the processing

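The counts were recomputed under 19 other settings, with RLE or upper-quartile scaling, DESeq2, no filter on low counts, only 1 line in the fit, a replicate block, and without single libraries. The last setting, chosen after the data were seen, left out both first siControl libraries. A fit of 1 line gives no value for comparisons between the lines. The shares over all genes were computed for the main fit only. Over 150 values of single genes there were 1739 recomputed values, of which 1596 kept their direction and their side of the threshold, 133 lost a call, 7 gained one and 3 changed sign. The 3 were uncalled values, of which 1 changed sign without the first and 2 without the second abl siCREB1 library. In refits without single libraries, CDKN1A with siCREB1 in abl ranged from -0.25 (without the first abl siCREB1 library) to 0.63 (without the second). The line difference in the siCREB1 effect ranged from -0.75 to 0.13 for CDKN1A and from -0.21 to 0.02 for MDM2, the first value without the first and the second value without the second abl siCREB1 library.

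Leaving out single libraries moved the members lower with siCREB1 in abl between 8 and 14 (13 with all libraries), and those with a lower siCREB1 effect in abl than in LNCaP between 3 and 5 (5 with all). Members higher with siFOXA1 stayed between 21 and 23 in LNCaP and between 13 and 15 in abl under these refits. Without a library the fit has fewer samples, and a lone sample is assumed to vary like the other groups.

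Library numbers were shared between groups but do not name a common culture or batch, and the correlations of the deviations of same-numbered libraries ranged from -0.047 to 0.231. With the replicate block within each line, the pairing gave 12 higher and 13 lower members with siCREB1 and 16 higher and 7 lower with siFOXA1 in abl. In LNCaP it gave 9 higher and 8 lower with siCREB1 and 23 higher and 6 lower with siFOXA1. With this block MDM2 was called lower with siFOXA1 in abl (-0.16, adjusted p = 0.0334, edgeR) and CDKN1A higher with siCREB1 in LNCaP (0.48, adjusted p = 0.0205, edgeR).

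Peaks at the members were not run, and neither were their alternatives, because gene starts on the build of the peaks were not at hand. The smallest library held 9092597 reads. SEs within a line reached 0.29 for TP53I3 in abl, at a few CPM, and 0.26 for CDKN1A, which stood at 121.5 CPM or higher in every library.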
